A study of Mus musculus with 9 samples.

Results

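The miR-101 family of the mouse was examined here in epididymosomes, the small membrane vesicles that the epididymis releases into its lumen and that sperm meet on their way through the duct. The members were every miRNA of the table named miR-101, which gave 4 of 358 miRNAs (miR-101a-3p, miR-101a-5p, miR-101b-3p and miR-101c), and all 4 passed the filter on low values. The study took epididymosomes from the caput, the corpus and the cauda of the epididymis, the first, middle and last segment of the duct, to ask how their miRNA content differs along it. Each segment had 3 small RNA libraries, and each library was made from RNA pooled over several Swiss male mice of 8 weeks. No group was treated, the labels of the 3 groups differed only in the segment, and the vesicles had been purified on a density gradient after the blood vessels were flushed with buffer. The groups also differed in sequencing depth, as given below.

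miRNAs are short RNAs that guide Argonaute proteins to messenger RNAs, chiefly through the seed, the bases 2 to 8 counted from the 5′ end. The 2 arms of a hairpin precursor give a 5p and a 3p strand, of which 1 usually dominates. miR-101 is best known as a repressor of Ezh2, the histone methyltransferase of a Polycomb repressive complex, and is often described as a brake on proliferation. Epididymosomes are known to hand proteins and small RNAs to maturing sperm.

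The mature sequences are shown because the names of this family hide how close its members are. They are given 5′ to 3′ from RefSeq on GRCm38.p6, with the seed in capitals.

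miR-101a-3p: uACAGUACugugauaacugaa
miR-101b-3p: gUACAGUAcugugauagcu
miR-101c: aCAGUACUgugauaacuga
miR-101a-5p: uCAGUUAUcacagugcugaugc

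The 3 strands of the 3p kind read through the same core but start at different bases, so the seeds of miR-101b-3p and miR-101c are each shifted by 1 base against that of miR-101a-3p, in opposite directions. miR-101c, of 19 bases, was the stretch from base 2 to base 20 of miR-101a-3p with no substitution, so every read of miR-101c could also be read as a trimmed miR-101a-3p. miR-101b-3p began 1 base earlier than miR-101a-3p. It matched it at 17 of 18 aligned bases, with the single substitution A16G, the position being counted from 1 at the 5′ end of miR-101a-3p. miR-101a-5p is the opposite strand of the miR-101a hairpin and shares no seed with the other members.

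The hairpins of the 2 main genes are shown with their mature strands in capitals, since the miR-101c letters lie whole inside the 3p strand of the first.

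Mir101a: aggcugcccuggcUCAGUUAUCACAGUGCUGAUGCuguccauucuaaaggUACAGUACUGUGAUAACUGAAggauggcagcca
Mir101b: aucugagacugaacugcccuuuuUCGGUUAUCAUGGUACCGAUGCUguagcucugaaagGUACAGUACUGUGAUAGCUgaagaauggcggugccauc

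On GRCm38 the Mir101a hairpin lies at chr4:101346945-101347027 on the minus strand, in an exon of the long non-coding RNA gene E130102H24Rik, between the coding genes Jak1 and Ak4. The Mir101b hairpin lies at chr19:29135279-29135375 on the plus strand, in an intron of Rcl1. Mir101c is annotated at chr9:3038669-3038743 on the minus strand, outside any coding gene, with Gm10715 and Alkbh8 as its coding neighbours. The miR-101b-5p strand, the first one in capitals in the Mir101b hairpin, was not analysed here.

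The values are in CPM, a count of reads divided by the total of miRNA reads in the same library and multiplied by 1000000. The libraries held 1548581 to 11306605 miRNA reads, with the caput libraries the deepest (8274421 to 11306605) and 1 corpus library the shallowest, so that 1 read was worth 0.0884 to 0.646 CPM. The 3 most abundant miRNAs of each library made up 59.3 to 76.3% of its reads in the caput, 60.1 to 62.4% in the corpus and 63.2 to 68.4% in the cauda. The pair with the highest mean over the 9 libraries, miR-10b-5p with miR-10a-5p, made up 50.5 to 71.3% of all reads of the caput libraries. It made up 50.3 to 53.2% of the corpus ones and 33.2 to 34.5% of the cauda ones, where miR-10b-5p ranked 2nd. Caput replicate 2 stood apart from the others, with the highest such share and a median of 21.3 CPM over all miRNAs, against 29.4 and 50.6 CPM in the other caput libraries and 51.1 to 69.5 CPM in the corpus and cauda libraries. Fold changes and ratios against the caput are therefore given below with and without that library. Vesicles that carry a miRNA more often and vesicles that carry more copies of it cannot be told apart in such pooled RNA.

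The family was abundant in every segment, and nearly all of it was miR-101a-3p. Summed over its 4 members it came to 706 to 3098 CPM in caput epididymosomes, with 3659 to 5211 CPM for the corpus and 4203 to 4903 CPM for the cauda. miR-101a-3p made up 87.0 to 87.4% of that sum in the caput, with 85.3 to 87.0% for the corpus and 78.3 to 84.6% for the cauda. miR-101b-3p made up most of the rest, while miR-101c stayed at or under 2.20% and miR-101a-5p at or under 0.380% of the sum in every library.

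**Figure D1:**
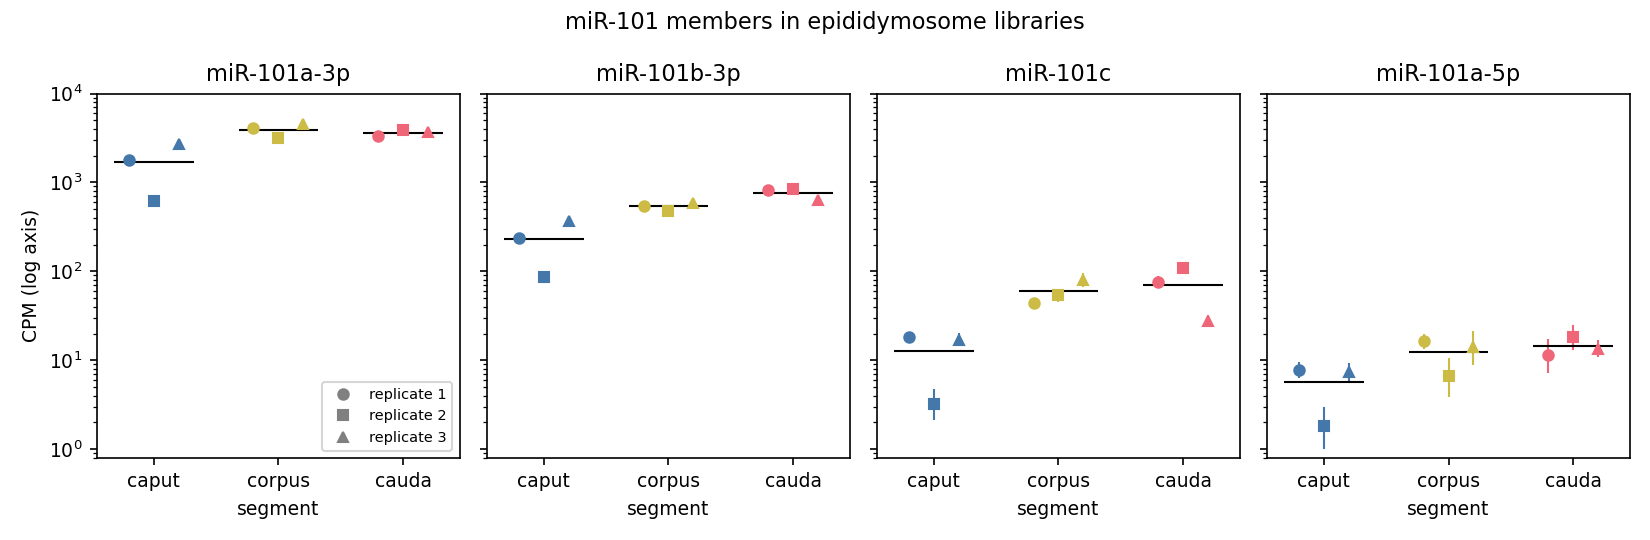
CPM on a log axis of each miR-101 member in the 9 libraries, by segment. Each point is 1 library with the 95% Poisson interval of its reads, and black lines are segment means. Caput replicate 2 (blue square) is the lowest library for all 4 members, and the cauda libraries lie above the caput libraries in every panel.

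miR-101a-3p, the guide strand of the family, stood at 1788, 614 and 2708 CPM in caput replicates 1 to 3. It stood at 4082, 3121 and 4531 CPM in the corpus libraries and at 3291, 3928 and 3693 CPM in the cauda libraries. All 6 corpus and cauda libraries were above all 3 caput libraries, and the corpus and cauda values overlapped. The segment means were 1703 ± 1050 CPM (caput), 3911 ± 721 CPM (corpus) and 3637 ± 322 CPM (cauda), with SDs over n = 3 libraries. It ranked 32nd to 49th of the 358 miRNAs in the caput libraries and 22nd to 27th in those of the other segments.

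miR-101b-3p, the strand of the second gene, was present at 236, 87.0 and 366 CPM in caput replicates 1 to 3. In the corpus libraries it reached 550, 478 and 584 CPM, and in the cauda libraries 825, 849 and 629 CPM. In CPM it was the only member whose 3 segments did not overlap at all, with the caput lowest and the cauda highest. Corpus libraries all lay above caput libraries for 29.3% of the miRNAs tested, and cauda above corpus libraries for 30.1%. The share that met both was not counted. After trimmed-mean (TMM) scaling the highest corpus library (517 scaled CPM) lay above the lowest cauda library (489 scaled CPM). Its means were 230 ± 140 CPM, 537 ± 54.1 CPM and 768 ± 120 CPM in the caput, corpus and cauda (SD, n = 3).

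miR-101c was a minor species, at 18.0, 3.26 and 17.0 CPM in caput replicates 1 to 3, the second of which is 27 reads. It came to 44.6, 54.0 and 80.7 CPM in the corpus libraries and to 76.0, 108 and 27.6 CPM in the cauda libraries. All corpus and cauda libraries were above all caput libraries, while cauda replicate 3 lay below every corpus library. The caput mean was 12.8 ± 8.26 CPM, the corpus mean 59.8 ± 18.7 CPM and the cauda mean 70.5 ± 40.5 CPM (SD, n = 3).

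miR-101a-5p, the passenger strand, rested on 15 to 102 reads a library. It was found at 7.78, 1.81 and 7.33 CPM in caput replicates 1 to 3, the lowest of which had a 95% Poisson interval of 1.01 to 2.99 CPM. In the corpus libraries it stood at 16.5, 6.66 and 14.2 CPM and in the cauda libraries at 11.5, 18.3 and 13.6 CPM. The cauda values lay above the caput values, and corpus replicate 2 fell within the caput range. Poisson intervals cover counting error only.

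The first comparison asks what changes between the caput and the corpus. Here 3 of the 4 members accumulated to a higher level in the corpus: miR-101a-3p, miR-101b-3p and miR-101c. The test was limma on log2(CPM + 1) over all miRNAs, and differential accumulation required a Benjamini-Hochberg adjusted p under 0.05 and a fold of at least 2. Of all 321 miRNAs tested, 19.0% were called higher in the corpus, and 29.3% had corpus libraries that all lay above the caput libraries, as these 3 members did. miR-101a-3p rose by a log2 fold change of 1.43 (SE 0.43), with an adjusted p of 0.026 from limma with Benjamini-Hochberg adjustment. miR-101b-3p rose by nearly the same amount, 1.45 (SE 0.46), with a limma Benjamini-Hochberg adjusted p of 0.032. The rise of miR-101c was 2.38 (SE 0.60), with a limma Benjamini-Hochberg adjusted p of 0.011, which ranked 16th by size among the miRNAs tested. miR-101a-5p had a log2 fold change of 1.1 (SE 0.53) and did not pass, with a limma Benjamini-Hochberg adjusted p of 0.14.

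The size of these rises depended on how the libraries were scaled and on caput replicate 2. The median log2 fold change of all miRNAs tested between corpus and caput was 0.47 with CPM and -0.10 after trimmed-mean (TMM) scaling, and the calls shifted from 61 higher and 11 lower to 42 higher and 49 lower. After TMM scaling the log2 fold changes were 0.85 for miR-101a-3p and 0.87 for miR-101b-3p, both short of the fold of 2 although limma's Benjamini-Hochberg adjusted p-values were 0.031 and 0.034. miR-101c kept its call at 1.87, with a limma Benjamini-Hochberg adjusted p of 0.024. Without caput replicate 2 the values were 0.81 for miR-101a-3p, 0.86 for miR-101b-3p and 1.67 for miR-101c, of which miR-101c alone was called, and 0.57 for miR-101a-5p, which was not. Of the 325 miRNAs tested in that fit, 13.2% were called higher. No member changed direction. Leaving out 1 corpus library also cost calls: miR-101a-3p lost its call without replicate 1 (1.39) or 3 (1.31), and miR-101b-3p without any 1 of the 3 (1.38 to 1.53).

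The second comparison asks what changes between the corpus and the cauda, which shares the corpus libraries with the first. No member was differentially accumulated, against 19.0% of the 342 miRNAs tested that were called in either direction by limma with Benjamini-Hochberg adjustment. At an unadjusted p under 0.05 there were also 0 of the 4 members, against 32.5% of the miRNAs tested, and limma-voom called 0 as well, against 13.5%. The log2 fold changes were -0.09 for miR-101a-3p, 0.26 for miR-101a-5p, 0.51 for miR-101b-3p and 0.08 for miR-101c. Their 95% intervals all held 0 and reached from -1.20 to 1.48, so changes of the size seen between caput and corpus lay inside the intervals of miR-101b-3p and miR-101a-5p. miR-101b-3p was the 1 member whose cauda libraries all lay above its corpus libraries, which was the case for 30.1% of the miRNAs tested. After TMM scaling these libraries overlapped, at 419 to 517 scaled CPM in the corpus and 489 to 761 in the cauda.

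The third comparison sets the cauda against the caput, the ends of the duct, and shares its libraries with the other comparisons. All 4 members were higher in the cauda, where limma with Benjamini-Hochberg adjustment called 38.7% of the 349 miRNAs tested higher. The cauda libraries of all 4 also lay above their caput libraries, as did those of 42.4% of the miRNAs tested. miR-101c changed most, with a log2 fold change of 2.45 (SE 0.60) and a limma Benjamini-Hochberg adjusted p of 0.0033. miR-101b-3p followed at 1.95 (SE 0.46), with a limma Benjamini-Hochberg adjusted p of 0.0025. The arms of the miR-101a hairpin rose alike, by 1.33 (SE 0.43) for miR-101a-3p and 1.36 (SE 0.53) for miR-101a-5p, with limma Benjamini-Hochberg adjusted p-values of 0.017 and 0.039. miR-101a-5p passed the filter on low values only through the corpus and cauda libraries.

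miR-101b-3p and miR-101c kept an adjusted p under 0.05 between cauda and caput in all 20 alternatives run, with limma Benjamini-Hochberg adjusted p-values up to 0.013 and 0.025. Among these alternatives, adding miR-101c to miR-101a-3p could not alter the fold change of either. The median of all miRNAs tested was 0.81 with CPM and 0.07 after TMM scaling, and the calls went from 135 higher and 36 lower to 84 higher and 73 lower. After TMM scaling the log2 fold changes were 1.28 for miR-101b-3p and 1.85 for miR-101c, which stayed called, and 0.66 for miR-101a-3p and 0.81 for miR-101a-5p, which did not. For miR-101c the TMM-scaled libraries overlapped, since cauda replicate 3 stood at 21.5 scaled CPM and caput replicate 1 at 23.9. Without caput replicate 2 the values were 1.37 for miR-101b-3p and 1.75 for miR-101c, both called, against 0.72 for miR-101a-3p and 0.83 for miR-101a-5p, both not called. Of the 353 miRNAs tested in that fit, 28.3% were called higher. miR-101a-3p also lost its call without cauda replicate 2 (1.28), and miR-101a-5p without any 1 of the 3 cauda libraries (1.19 to 1.51) or corpus replicate 1 (1.36).

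**Figure D2:**
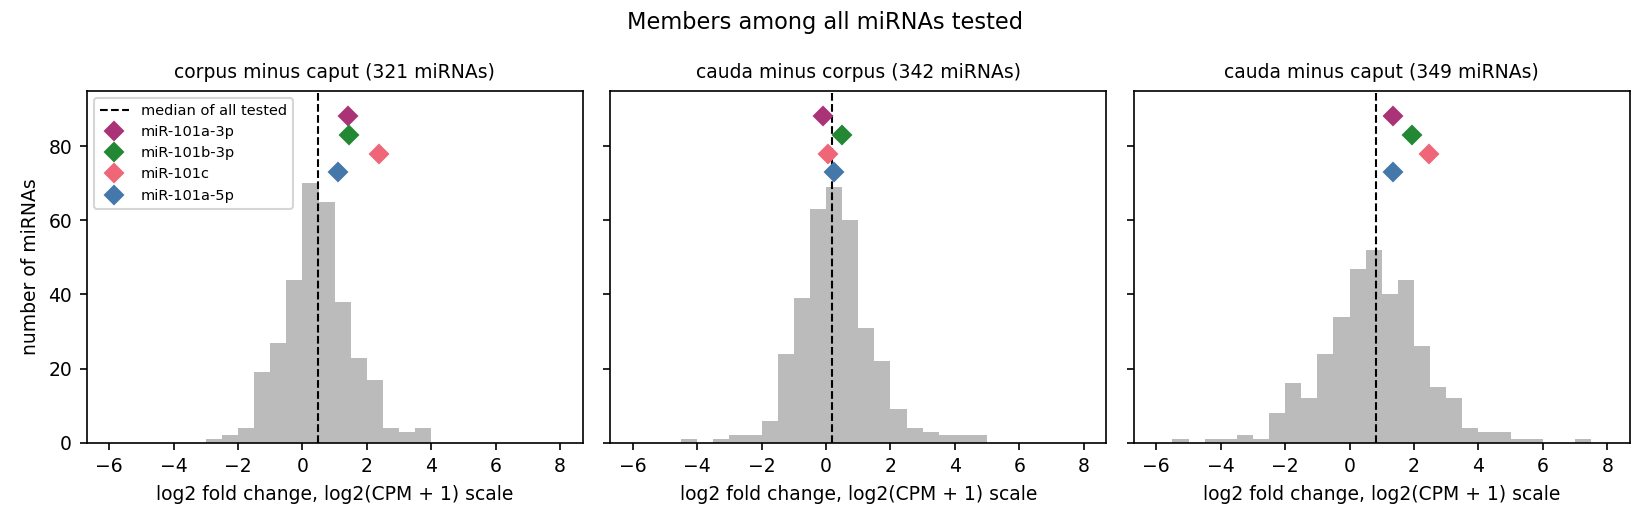
Histograms of the log2 fold changes of all miRNAs tested in each comparison, on the log2(CPM + 1) scale, with the 4 members as diamonds (their height has no meaning) and the median as a dashed line. The members lie to the right of the median in the panels against the caput, and within 0.33 of it between cauda and corpus.

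Ratios between members do not depend on the scaling of the library, and the cauda libraries held more miR-101b-3p per miR-101a-3p than any other library. For each 100 reads of miR-101a-3p there were 13.2, 14.2 and 13.5 reads of miR-101b-3p in the caput libraries. The corpus libraries had nearly the same, at 13.5, 15.3 and 12.9, and the cauda libraries had 25.1, 21.6 and 17.0. The caput and corpus libraries overlapped, and each cauda library lay above all 6 of them. The log2 ratio was higher in the cauda than in the corpus by 0.60 (SE 0.18) and higher than in the caput by 0.62 (SE 0.17). In both cases the two-sided exact permutation p was 0.1, the smallest that 3 against 3 libraries can give (0.2 after Benjamini-Hochberg adjustment over 6 comparisons of ratios). Between corpus and caput the log2 ratio differed by 0.02 (SE 0.08), with an exact permutation p of 0.9. An exact permutation test over the 280 divisions of the 9 libraries into 3 segments gave p = 0.0321 (0.0643 after Benjamini-Hochberg adjustment over the 2 ratios tested so), where the smallest possible was 0.00357. Without caput replicate 2 the log2 ratio differed by 0.65 between cauda and caput and by 0.05 between corpus and caput.

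**Figure D3:**
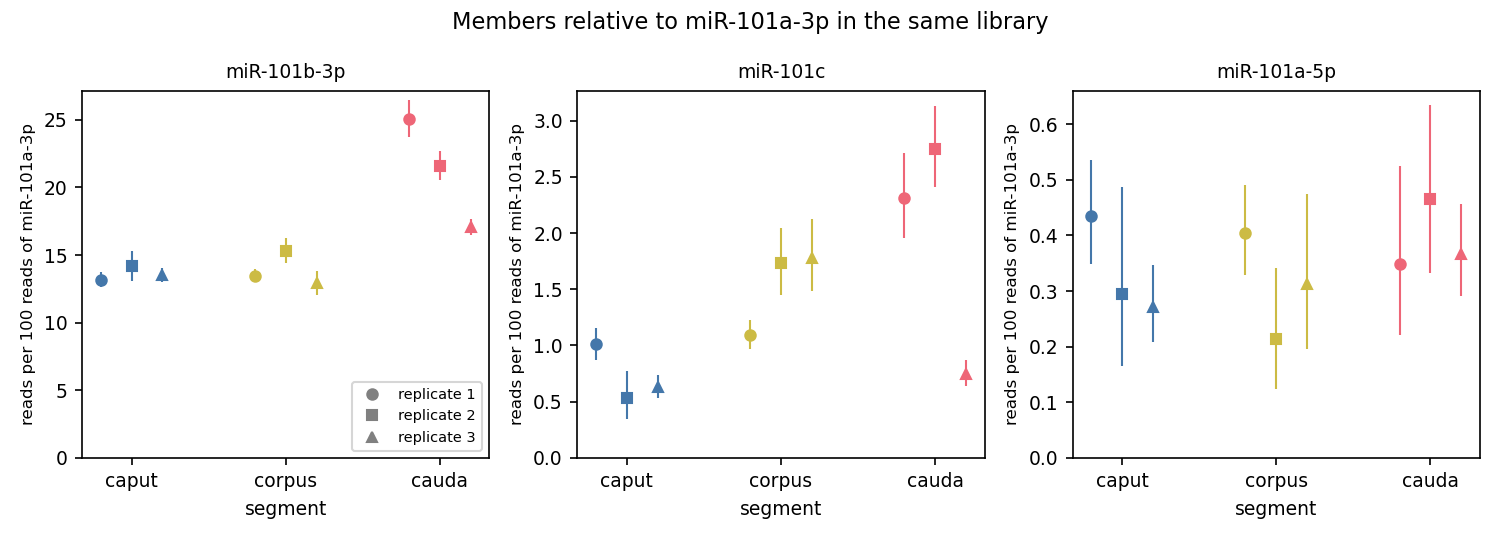
Reads of miR-101b-3p, miR-101c and miR-101a-5p per 100 reads of miR-101a-3p in each of the 9 libraries, with 95% counting intervals. For miR-101b-3p the 3 cauda libraries (17.0 to 25.1) lie above the 6 others (12.9 to 15.3), and for miR-101a-5p the segments overlap.

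miR-101c, which cannot be told from a trimmed miR-101a-3p by its letters, was not a fixed share of miR-101a-3p. The caput libraries had 1.01, 0.531 and 0.629 reads of miR-101c per 100 reads of miR-101a-3p. The corpus libraries had 1.09, 1.73 and 1.78, and the cauda libraries 2.31, 2.75 and 0.748. The corpus libraries were above the caput libraries, and cauda replicate 3 lay inside the caput range. The log2 ratio differed by 1.02 (SE 0.33) between corpus and caput, with a two-sided exact permutation p of 0.1, the smallest possible, and 0.2 after Benjamini-Hochberg adjustment. Between cauda and caput it differed by 1.19 (SE 0.63), with an exact permutation p of 0.2, and the exact test over all 3 segments gave p = 0.154. These differences were 0.88 and 1.05 without caput replicate 2. Adding the miR-101c reads to miR-101a-3p left the log2 fold changes of the latter at 1.44, -0.09 and 1.35 in the 3 comparisons.

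The share of miR-101c also moved with the depth of the library. It was 0.531 to 1.09 per 100 in the 5 libraries with over 5000000 miRNA reads (all 3 of the caput, corpus replicate 1 and cauda replicate 3) and 1.73 to 2.75 in the 4 shallower ones. These ranges did not overlap, whatever the segment. Among the deep libraries the corpus library (1.09) and the cauda library (0.748) stood near the caput libraries (0.531 to 1.01). Among the shallow ones the cauda libraries (2.31 and 2.75) stood above the corpus libraries (1.73 and 1.78), and no caput library was shallow. Within the deep libraries the level of miR-101c was 44.6 CPM in the 1 corpus library, 27.6 CPM in the 1 cauda library and 3.26 to 18.0 CPM in the caput. The part of depth in the differences of miR-101c was not tested.

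The ratio of miR-101b-3p to miR-101a-3p also differed with depth within the cauda, at 25.1 and 21.6 per 100 in the shallow libraries and 17.0 in the deep one. Among the deep libraries the cauda one lay above the corpus one (13.5) and the caput ones (13.2 to 14.2), and the corpus one fell inside the caput range. Among the shallow libraries both cauda ones lay above the corpus ones (12.9 and 15.3). The part of depth in the size of this difference was not tested. The level of miR-101a-3p in the deep libraries was 4082 CPM in the corpus, 3693 CPM in the cauda and 614 to 2708 CPM in the caput.

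**Figure D4:**
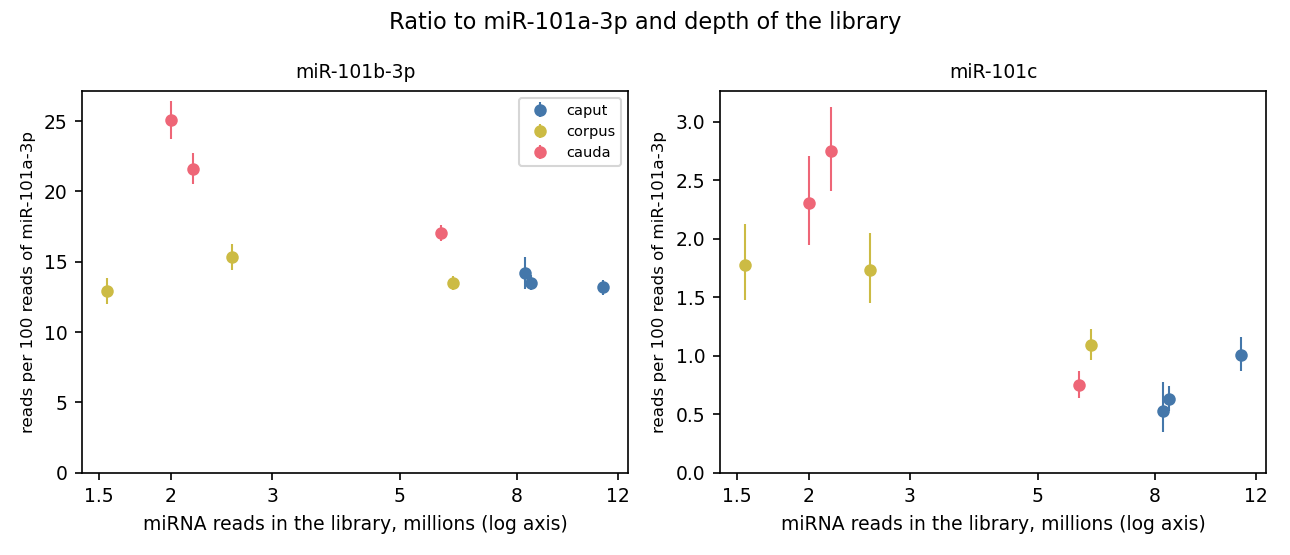
Reads of miR-101b-3p (left) and of miR-101c (right) per 100 reads of miR-101a-3p against the miRNA reads of the library on a log axis, with 95% counting intervals and colours for segments. The miR-101c values split by depth (0.531 to 1.09 above 5000000 reads, 1.73 to 2.75 below), while the miR-101b-3p values of the cauda are the highest at both depths.

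The ratio between the strands of the miR-101a hairpin passed the test in no comparison. miR-101a-5p gave 0.213 to 0.466 reads per 100 reads of miR-101a-3p over the 9 libraries, and the segments overlapped. By limma over 64 hairpins with both arms in the table, the log2 ratio of 5p to 3p differed by -0.23 (SE 0.34) between corpus and caput, by 0.37 between cauda and corpus and by 0.13 between cauda and caput. The Benjamini-Hochberg adjusted p-values from limma were 0.74, 0.57 and 0.82, and 1.56%, 6.25% and 15.6% of the 64 hairpins passed in the same comparisons. The 95% interval of the largest difference reached from -0.38 to 1.11, so a change of up to that size lay inside it. The differences from the caput were -0.22 for the corpus and 0.15 for the cauda without caput replicate 2.

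Over the 9 libraries the log2(CPM + 1) values of the members followed each other, with Pearson correlations of 0.853 to 0.947 between any 2 of them. The 5 miRNAs outside the family most like miR-101a-3p were miR-30d-3p (0.974), miR-106b-5p (0.973), miR-218-5p (0.973), miR-26b-5p (0.962) and miR-130a-3p (0.958). Those most like miR-101b-3p were let-7i-5p (0.979), miR-130a-3p (0.966), miR-106b-5p (0.959), miR-199b-3p (0.956) and miR-199a-3p (0.956). These are descriptions over libraries that all share the same total and the same low caput replicate 2: the median correlation with miR-101a-3p over the 305 miRNAs compared was 0.598, and 22 of them were over 0.9. With miR-101b-3p the median was 0.648, and 27 of the 305 were over 0.9. In caput, corpus and cauda miR-199a-3p had means of 1375, 3026 and 4774 CPM, and miR-199b-3p 1360, 3006 and 4743 CPM. Since these are nearly equal, the pair may not be separate neighbours of miR-101b-3p.

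Few other miRNAs of the table with a known sequence share even bases 2 to 7 with a member. Of the 299 with a RefSeq sequence, none outside the family held the bases 2 to 8 of any member. With bases 2 to 7, miR-144-3p shared the ACAGUA of miR-101a-3p, and miR-582-5p shared the UACAGU of miR-101b-3p.

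miR-144-3p: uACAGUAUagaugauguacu
miR-582-5p: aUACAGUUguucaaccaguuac

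miR-144-3p, a miRNA of red blood cells, stood far below miR-101a-3p at 1.42, 0.604 and 11.6 CPM in caput replicates 1 to 3, 5.82, 5.48 and 13.6 CPM in the corpus libraries and 10.5, 18.8 and 10.2 CPM in the cauda libraries. Its cauda level exceeded its caput level by 1.90 (SE 0.654) with a limma Benjamini-Hochberg adjusted p of 0.0234, although caput replicate 3 lay within the cauda range, and it passed the filter only through the cauda. Without caput replicate 2 the difference was 1.31 and was not called. miR-582-5p had a caput mean of 19.8 ± 12.1 CPM, a corpus mean of 7.57 ± 3.68 CPM and a cauda mean of 15.5 ± 3.03 CPM (SD, n = 3) and passed in no comparison. Of these 2 carriers of ACAGUA at bases 2 to 7, miR-101a-3p and miR-144-3p, miR-101a-3p thus gave nearly all the reads in every library. Names of the table without a RefSeq sequence were not searched.

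Among other miRNAs known to act on Ezh2, 3 were called in at least 1 comparison. A list of 16 such miRNAs, among them miR-26a-5p, miR-26b-5p, miR-138-5p, miR-214-3p and the let-7 family, had 14 members in the table. Between corpus and caput 1 of the 13 tested was higher and 1 lower, where 19.0% and 3.43% of all miRNAs tested were, with a median log2 fold change of 0.50 for the list, against 1.44 for the miR-101 members and 0.47 for all miRNAs tested. Between cauda and corpus limma called 0 of 14, against 19.0% of all. At an unadjusted p under 0.05 there were 0, against 32.5% of all, and limma-voom called 0, against 13.5%. Between cauda and caput 2 of 14 were higher and 1 lower, where 38.7% and 10.3% of all were, with medians of 0.34 for the list, 1.66 for the miR-101 members and 0.81 for all. let-7i-5p rose with the family, by 1.18 from caput to corpus and 1.49 from caput to cauda, with limma Benjamini-Hochberg adjusted p-values of 0.0238 and 0.00238. miR-138-5p moved the other way, by -1.72 and -2.51, with limma Benjamini-Hochberg adjusted p-values of 0.0359 and 0.0018. The third one called was miR-144-3p, as above. Without caput replicate 2 let-7i-5p was at 0.80, short of a fold of 2, and 1.12, which was called, and miR-138-5p stayed called at -2.47 and -3.27. miR-26a-5p, the most abundant of the list, had log2 fold changes of 0.31 and 0.68 in the same comparisons and was called in neither.

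Markers of several other cell types were most abundant in the cauda. The summed level of the 4 smooth muscle miRNAs was 50110 to 89000, 88420 to 121400 and 291700 to 354800 CPM in caput, corpus and cauda libraries. In the same order, that of the red blood cell miRNAs was 223 to 848, 390 to 1104 and 3019 to 4348 CPM, that of the striated muscle miRNAs 55.5 to 197, 121 to 167 and 1403 to 4146 CPM, and that of the male germ cell miRNAs 329 to 1005, 733 to 938 and 1889 to 2206 CPM. Leukocyte miRNAs came to 231 to 530, 515 to 1149 and 392 to 1601 CPM. Epithelial miRNAs, which mark the cells that release epididymosomes, came to 20990 to 31800, 71970 to 84210 and 44550 to 61010 CPM. Between cauda and caput 4 of 4 red blood cell, 3 of 5 leukocyte, 4 of 4 smooth muscle, 4 of 4 striated muscle, 6 of 6 germ cell and 1 of 5 epithelial miRNAs were called higher, against 38.7% of all miRNAs tested. Of these, 3 of the striated muscle miRNAs (miR-1a-3p, miR-133b-3p and miR-208b-3p), miR-144-3p and miR-155-5p passed the filter only through the cauda, where they are high. The red blood cell miRNAs miR-486a-5p and miR-486b-5p had nearly equal log2 fold changes in that comparison, 3.095 and 3.094. Their calls and their parts of the sum may therefore rest on the same reads, which was not tested. The counts without caput replicate 2 were 2, 3, 2, 4, 5 and 1 in the same order, against 28.3% of all miRNAs tested in that fit. Between corpus and caput, where the miR-101 strands other than miR-101a-5p rose, the counts were 1 of 3, 0 of 4, 0 of 4, 0 of 1, 3 of 6 and 2 of 5, against 19.0% of all. They were 0, 0, 0, 0, 3 and 1 without caput replicate 2, against 13.2% of all. In that fit 1 germ cell and 1 epithelial miRNA were called lower, against 8.6% of all. None of the listed miRNAs in the table was at 0 throughout a segment. Their part in the results on miR-101 was not tested.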

How the data were processed

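Small RNA from epididymosomes of 3 epididymal segments was sequenced in 9 libraries, 3 a segment. The authors trimmed and aligned the reads (Bowtie 1.1.1 and CASAVA 1.8.2 are named in the submitters' processing notes), counted mature miRNAs, normalised by library size and deposited CPM values for 358 miRNAs. The authors name edgeR and limma with a fold of 2 and an FDR of 0.05. Their genome build, and how reads that match both miR-101a-3p and miR-101c were assigned, are not given in the sources used here. Each CPM value was a whole multiple of the value of 1 read (tolerance 0.05 reads), which gave the reads per library, 1548581 to 11306605.

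From the deposited CPM, limma 3.58 (R 4.3) was fitted with a trend to log2(CPM + 1) of all 358 miRNAs and 9 libraries. Fold changes are on this scale, which understates those of rare miRNAs. Benjamini-Hochberg adjustment covered miRNAs whose mean reached 10 CPM in either segment of the pair, and a call needed an adjusted p under 0.05 and a fold of at least 2. Arm ratios used limma on log2((5p + 0.5)/(3p + 0.5)) over 64 hairpins, and ratios between members used two-sided exact permutation tests over libraries (Python 3.11, scipy 1.17). Intervals are exact Poisson or binomial ones at 95%. The scripts were tested on simulated data. Named were all members, the seed relatives, the 5 miRNAs most like miR-101a-3p and miR-101b-3p, and the called miRNAs of an Ezh2 list. miR-26a-5p, the depth classes (over and under 5000000 reads) and miR-101c added to miR-101a-3p were chosen after values were seen. The members, the Ezh2 list and the marker lists were chosen with earlier results of these data known. Replicates are separate pools of mice, so p-values measure the spread between pools. Library numbers were not taken as pairs, since the labels do not say what a shared number means. Of the 358 names, 299 matched a RefSeq sequence of GRCm38.p6.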

Additional observations from a re-analysis of the deposited data

How the results depend on the processing

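Of 405 values recomputed for 24 results, 364 kept their direction and their side of the threshold or stayed within their spread. Part of the 364 could not change, so that number overstates how stable the results are. The replicate block, or leaving out a library of the third segment, cannot alter a ratio between members in a pair of segments. Adding miR-101c to miR-101a-3p cannot alter the fold changes of the other members. The values outside the 364 are given here, as log2 values, and the cause was not tested. Median-of-ratios scaling, added after seeing the data, gave corpus minus caput values of 0.90 for miR-101a-3p and 0.93 for miR-101b-3p and cauda minus caput values of 0.61 for miR-101a-3p and 0.76 for miR-101a-5p, none called, and -0.12 for miR-101c between cauda and corpus. TMM scaling gave 0.85, 0.87, 0.66 and 0.81 for the same 4 and -0.02 for miR-101c. Scaling without the 3 most abundant miRNAs turned miR-101a-3p between cauda and corpus to 0.05. miR-101a-5p between cauda and caput lost its call with a pseudocount of 5 (0.91) and with only the 6 libraries compared (1.36). With a ratio pseudocount of 5 CPM the 5p to 3p ratio between cauda and caput turned to -0.42, and the miR-101c ratio between corpus and caput moved to 0.55.

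Leaving out 1 library in turn gave corpus minus caput ranges of 0.81 to 1.88 for miR-101a-3p and 0.86 to 1.89 for miR-101b-3p. Cauda minus caput ranges were 0.72 to 1.79 for miR-101a-3p and 0.83 to 1.65 for miR-101a-5p, and -0.04 to 0.30 for the 5p to 3p ratio. Between cauda and corpus the range was -0.25 to 0.02 for miR-101a-3p, -0.10 to 0.49 for miR-101a-5p and -0.33 to 0.64 for miR-101c, so those directions rest on single libraries. The number of miRNAs called, 72 between corpus and caput, 65 between cauda and corpus and 171 between cauda and caput, ranged over 46 to 102, 32 to 83 and 132 to 202, and the last fell to 95 with a filter of 50 CPM. The lowest count between corpus and caput was without corpus replicate 1, that between cauda and corpus without corpus replicate 2 (38, 39 and 41 without cauda replicate 1, cauda replicate 2 and corpus replicate 1).

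With the replicate block the counts were 83, 73 and 180 and the calls of the members were as without it. Libraries of the same number in different segments had correlations of their deviations from -0.21 to 0.44, over 0.1 in 5 of 9 pairs, and 8 of 9 libraries correlated best with one of their own number, a hint from the data and not the design. The planned edgeR alternative was not run. The reads worked out from the CPM steps were tested with limma-voom instead. With 3 libraries a segment, single libraries decide many calls, and miR-101a-5p, at 15 to 102 reads a library, is the least precise member.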
